A study of Homo sapiens with 8 samples.

Results

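Transcripts of 10 genes of hepcidin control and iron handling were followed in HepG2 cells, a human hepatocellular carcinoma line, after 8 days of growth on conventional culture plastic (2D-primed, n = 4) or on a porous polystyrene scaffold (3D-primed, n = 4). The genes were taken by symbol from the 38032 gene identifiers in the count tables: hepcidin (HAMP), its BMP-responsive companions ID1 and SMAD6, the regulators TMPRSS6 and TFR2, transferrin (TF), the transferrin receptor TFRC, the iron exporter ferroportin (SLC40A1) and the ferritin chains FTH1 and FTL. All 8 libraries came from 1 line, with no engineered change described, grown in minimal essential medium with foetal bovine serum. No agent was added to either group, and cells of both groups were released with trypsin before RNA was extracted. The study asked how the geometry of the growth surface alters the cells, and the comparison here is 3D-primed against 2D-primed. By its methods, more cells were seeded per scaffold insert than per culture well of the same plate format. The number of cells seeded and the growth surface therefore cannot be told apart. The labels do not say whether replicates were separate cultures, so p-values measure the spread between these samples, which may be technical.

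Hepcidin is a small peptide secreted by hepatocytes that binds ferroportin, the only known cellular iron exporter, and sends it to degradation, which lowers iron release into plasma. Its transcription is driven in hepatocytes by bone morphogenetic proteins (BMPs) through SMAD transcription factors, with a further arm through interleukin 6 and STAT3, and TMPRSS6 and TFR2 tune the BMP arm. Within cells, iron regulatory proteins bind stem-loops called iron-responsive elements, which block translation of the ferritins and of ferroportin and protect the transcript of TFRC from degradation when iron is scarce. HepG2 cells are transformed and serum-fed, so they model hepatocytes with these limits, and iron content was not measured in the data used here.

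The iron-responsive elements of the listed genes are shown because they are the sequence feature that sets the ferritins and ferroportin apart from TFRC. A search of 19758 protein-coding transcripts (GENCODE, GRCh38) looked for a C, 5 bases, the loop CAGTGN with a last base other than G, and 5 bases able to pair with the first 5, G-T pairs included. A match was held by 189 genes, 0.957% of the transcripts searched, and by 5 of the 10 listed genes. Each sequence is given 5′ to 3′ on the strand of the gene, with the loop in capitals. In FTH1, FTL and SLC40A1 the match lay in the 5′ UTR, at chr11:61967573-61967602 (minus strand), chr19:48965335-48965364 (plus strand) and chr2:189580660-189580689 (minus strand), respectively.
FTH1 5′ UTR: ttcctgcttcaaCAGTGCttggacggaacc
FTL 5′ UTR: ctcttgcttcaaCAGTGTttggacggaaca
SLC40A1 5′ UTR: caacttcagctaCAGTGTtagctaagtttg
The 3′ UTR of TFRC held 4 matches on the minus strand, at chr3:196050978-196051007, chr3:196050574-196050603, chr3:196050509-196050538 and chr3:196050462-196050491, listed here in the order of the transcript.
TFRC 3′ UTR, match 1: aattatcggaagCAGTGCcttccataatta
TFRC 3′ UTR, match 2: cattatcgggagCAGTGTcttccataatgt
TFRC 3′ UTR, match 3: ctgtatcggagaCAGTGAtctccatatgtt
TFRC 3′ UTR, match 4: aattatcgggaaCAGTGTttcccataattt
The fifth gene with a match was TF, in the long 3′ UTR of its representative transcript, a gene that is not known for this element. A match is a description of letters and does not show that a protein binds there. The search also misses some known elements, so a gene without a match may still carry one.

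Before the results, the state of the libraries is given. Total counts ranged from 21599630 to 25019499 in 2D-primed and from 22153063 to 27844077 in 3D-primed libraries, and mitochondrially encoded transcripts took 1.40% to 1.81% and 2.47% to 2.98% of counts. The summed level of 8 hepatocyte markers was 68408 to 74239 CPM (counts relative to the library total, scaled by TMM) in 2D-primed and 93858 to 104705 CPM in 3D-primed libraries. Within that list ALB, AFP, APOA1, TTR and FGB were higher in 3D-primed cells, APOB and SERPINA1 were lower (log2 fold changes -0.25 and -0.14, edgeR adjusted p = 0.016 and 0.011) and AHSG was not called (adjusted p = 0.077), and the rise of the sum came mainly from ALB (26391 to 44035 CPM) and AFP (8679 to 18752 CPM). Of other liver cells, 5 endothelial markers summed to 5.79 to 8.10 CPM in 2D-primed and 4.41 to 5.91 CPM in 3D-primed libraries, with STAB2 at 0 throughout. Its members differed: CDH5 went from 4.73 to 1.59 CPM (log2 fold change -1.56, edgeR adjusted p = 2.7e-05), VWF was higher (0.62, adjusted p = 0.030), and PECAM1 (0.46, adjusted p = 0.12) and LYVE1 (-0.68, adjusted p = 0.13) were not called. The 5 stellate and fibroblast markers summed to 11.9 to 13.1 against 16.2 to 19.4 CPM, nearly all of it PDGFRB, with COL1A1 going the other way (0.969 to 0.0703 CPM). The 4 erythroid markers summed to 1.17 to 2.02 against 0.226 to 0.664 CPM, nearly all of it HBA1, with ALAS2 at 0. The 5 macrophage markers summed to 71.9 to 74.4 against 29.8 to 39.4 CPM, and almost all of this was CD68 (72.7 to 34.4 CPM, log2 fold change -1.08), a lysosomal protein not confined to macrophages. CD163 and MARCO were at 0 in every library and PTPRC and CSF1R had 0 to 2 counts. The part of these marker levels and of the mitochondrial share in the changes below was not tested. In these bulk samples, fewer cells that express a gene and less of its RNA in each cell cannot be told apart.

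All 10 listed genes differed between the groups at an adjusted p below 0.05 in edgeR's quasi-likelihood test, 3 higher in 3D-primed cells (TF, TFR2 and FTL) and 7 lower (HAMP, SMAD6, ID1, SLC40A1, TFRC, TMPRSS6 and FTH1). In the same fit 63.9% of the 13943 genes tested were called, 32.4% higher and 31.6% lower in 3D-primed cells, so being called is common in these data and the size and direction of each change carry the description. The groups did not overlap in CPM for 9 of the 10 genes, against 59.8% of all genes tested. The median log2 fold change of the 10 genes was -0.55, and that of all genes tested was 0.013. The 10 genes were chosen with earlier results of these data known, so these figures only describe them.

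**Figure D1:**
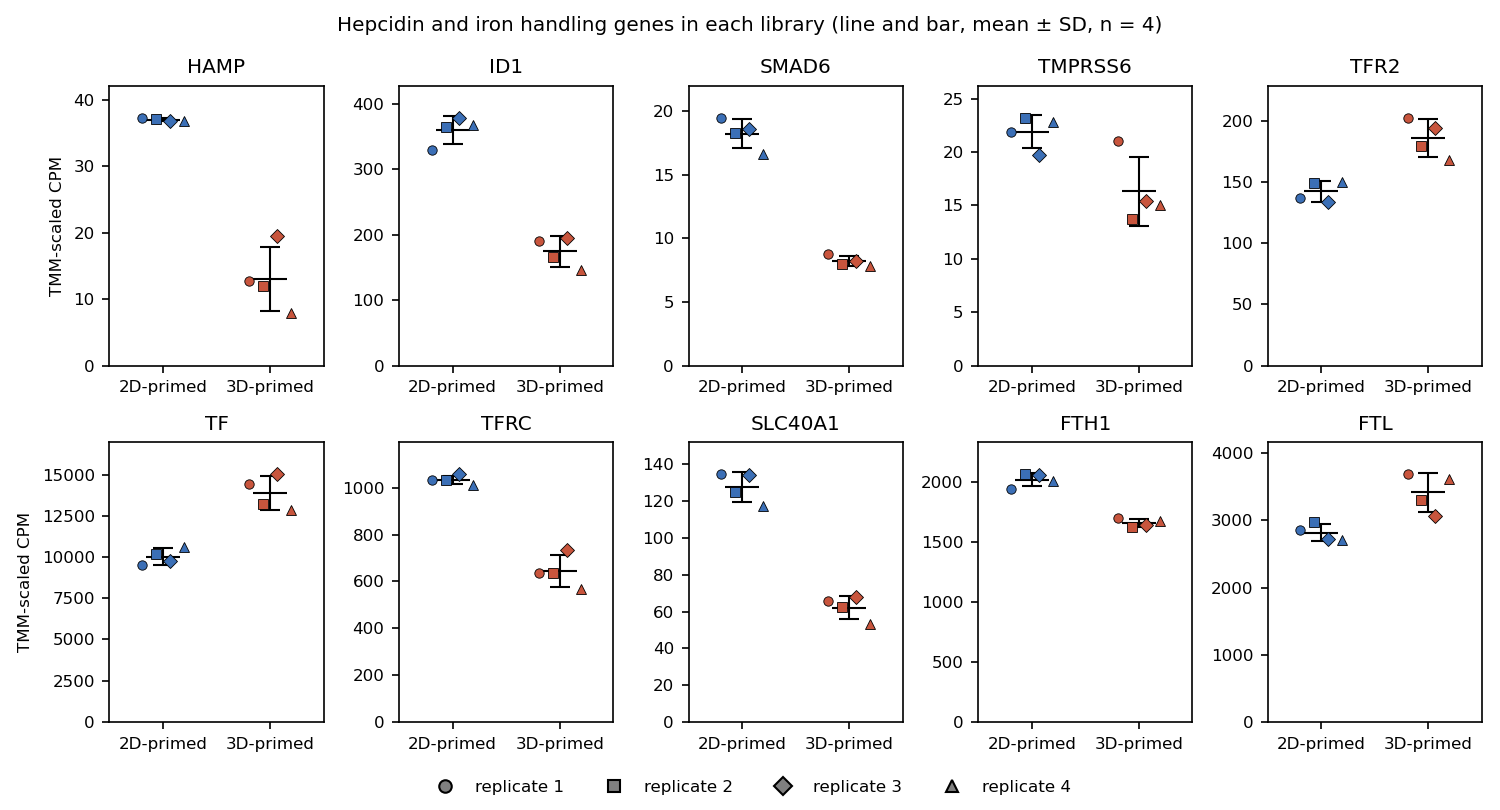
Level of each listed gene in CPM (scaled by the trimmed mean of M-values, TMM; vertical axes from 0) in the 4 2D-primed and 4 3D-primed libraries, with symbols for replicates and the mean ± SD. HAMP lies between 36.8 and 37.3 CPM in 2D-primed cells and between 7.94 and 19.5 CPM in 3D-primed cells, and TMPRSS6 is the one gene whose groups overlap.

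Hepcidin itself (HAMP, ENSG00000105697, chromosome 19:35280716-35285143, plus strand, GRCh38) was lower in every 3D-primed library. Its level was 37.3, 37.1, 36.9 and 36.8 CPM in 2D-primed replicates 1 to 4 and 12.8, 12.0, 19.5 and 7.94 CPM in 3D-primed replicates 1 to 4. The 2D-primed libraries were nearly alike, whereas the 3D-primed libraries were spread out, replicate 3 being the highest and replicate 4 the lowest. The coefficient of variation was 0.579% in 2D-primed cells and 36.6% in 3D-primed cells. Counting error alone gives 3.32% to 3.51% for the 2D-primed counts and 4.29% to 7.07% for the 3D-primed counts, so the 2D-primed libraries lay closer together than counting allows on average and only the 3D-primed spread exceeded it. The log2 fold change was -1.50 ± 0.198 (SE; edgeR, adjusted p = 7.9e-05), from 200 to 906 counts per library. It was -1.77 without 3D-primed replicate 3 and -1.32 without 3D-primed replicate 4, and the call was kept in both.

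The same 3D-primed library was the lowest of its group in most of the listed genes. Replicate 4 gave the lowest 3D-primed level in 7 of the 10 genes and the highest in 0, while replicates 1 and 3 gave the highest level in 5 genes each. The share over all genes tested was not counted, so this order is not read as a trait of the listed genes. In the 2D-primed group the lowest level was in replicate 4 for 5 genes. Every pair within a group differed by more than sampling noise (chi-square per degree of freedom from 6.15 to 16.9), so none was the same library counted again. That does not show that they came from separate cultures.

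ID1 and SMAD6 are direct transcriptional targets of BMP-SMAD signalling, ID1 as an inhibitor of helix-loop-helix factors and SMAD6 as an inhibitory SMAD that feeds back on the pathway. ID1 (ENSG00000125968, chromosome 20:31605283-31606515, plus strand) stood at 329.6, 364, 378 and 367 CPM in 2D-primed replicates and at 191, 166, 195 and 146 CPM in 3D-primed replicates. SMAD6 (ENSG00000137834, chromosome 15:66702236-66782849, plus strand) stood at 19.4, 18.2, 18.6 and 16.6 CPM in 2D-primed replicates and at 8.75, 8.01, 8.21 and 7.82 CPM in 3D-primed replicates. Each gene was lower in every 3D-primed library than in any 2D-primed library, with no overlap. The log2 fold change was -1.04 ± 0.0880 for ID1 (SE; edgeR, adjusted p = 3.3e-06) and -1.15 ± 0.0662 for SMAD6 (SE; edgeR, adjusted p = 2.7e-07). The 3D-primed spread of SMAD6 was narrow, with a coefficient of variation of 4.89% against 36.6% for HAMP.

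The promoter of HAMP is printed because it carries the letters of the motifs through which the BMP and interleukin 6 arms are known to reach the gene. The 120 bases before the RefSeq start (chr19:35282408-35282527, plus strand, GRCh38.p14) are given with both motifs in capitals.
HAMP promoter: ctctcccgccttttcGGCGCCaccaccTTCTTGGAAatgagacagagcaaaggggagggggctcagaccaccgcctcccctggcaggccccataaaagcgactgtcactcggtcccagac
GGCGCC, the core of the BMP response element, lay at positions -105 to -100 before the start, and TTCNNNGAA, the STAT letters, at -93 to -85. Both motifs are their own reverse complement, so 1 search covers both strands, and they did not overlap each other in the promoter of HAMP. In 35116 RefSeq promoter windows of 250 bases, 16.4% held GGCGCC, 6.57% held TTCNNNGAA and 0.538% held both. The windows of ID1 and SMAD6 held neither set of letters, and among the other listed genes GGCGCC occurred in TF and TFRC. The table of promoters had no entry for TFR2, FTH1 or TMPRSS6.

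The ratio of HAMP to each BMP target within a library, which does not depend on the scaling between libraries, was used to ask whether the genes moved by unequal amounts. The log2 ratio of HAMP to ID1 counts averaged -3.28 ± 0.0926 in 2D-primed cells and -3.80 ± 0.361 in 3D-primed cells (SD, n = 4 each). The groups overlapped through 3D-primed replicate 3, which stood at -3.32 while the 2D-primed libraries ran from -3.36 to -3.14. The difference of -0.52 did not pass the test (exact two-sided permutation test, p = 0.057, adjusted over the 6 ratios 0.069). Against SMAD6, the log2 ratio averaged 1.02 ± 0.0883 in 2D-primed cells and 0.60 ± 0.501 in 3D-primed cells (SD, n = 4 each). Its 3D-primed values ran from 0.022 to 1.24 and enclosed all 2D-primed values, and the difference of -0.43 gave an exact permutation p of 0.14. These tests do not show whether HAMP fell by the same amount as ID1 or SMAD6. Without 3D-primed replicate 4 the differences were -0.39 for ID1 and -0.23 for SMAD6, and without 3D-primed replicate 3 they were -0.68 and -0.64.

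**Figure D2:**
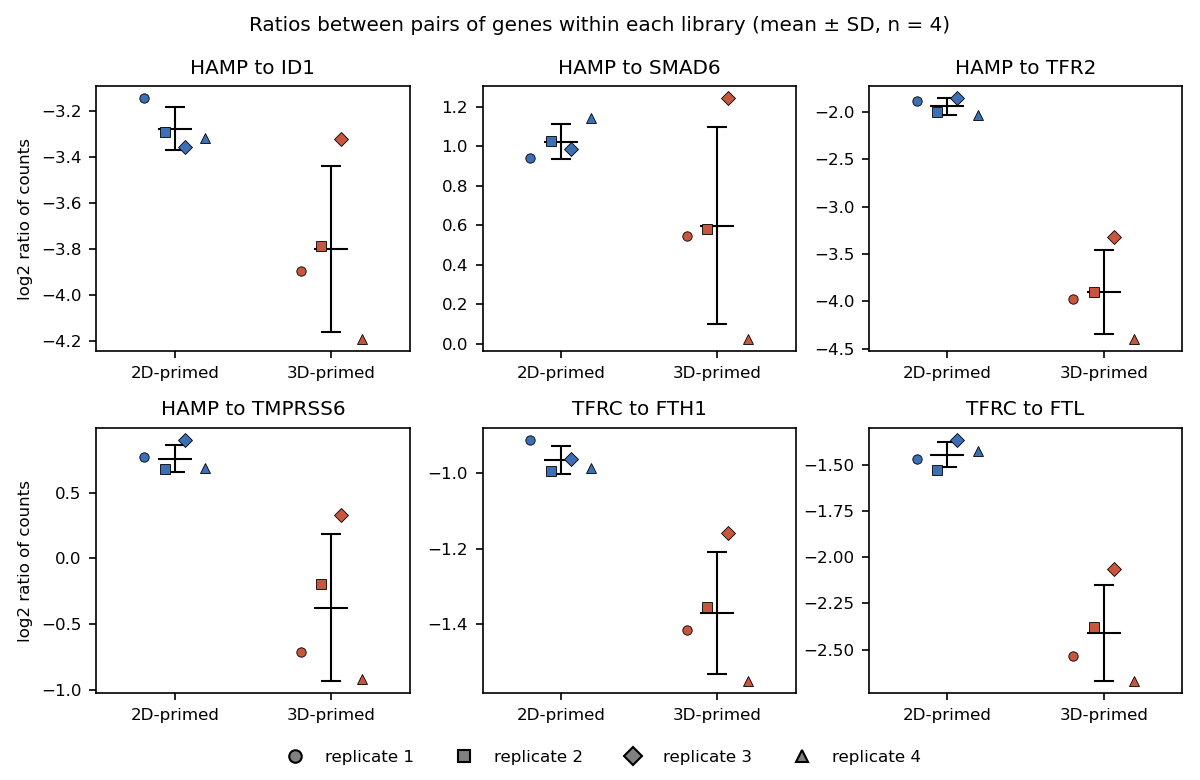
Log2 ratio of the counts of 2 genes within each library (pseudocount 0.5; vertical axes differ between panels and do not start at 0), with symbols for replicates and the mean ± SD of 4 libraries. HAMP to ID1 and HAMP to SMAD6 overlap between the groups through 3D-primed replicate 3, while HAMP to TFR2, HAMP to TMPRSS6, TFRC to FTH1 and TFRC to FTL are lower in each 3D-primed library than in any 2D-primed library.

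Of the regulators, TFR2 moved in the opposite direction to HAMP, and TMPRSS6 moved in the same direction by a smaller amount. TFR2 (ENSG00000106327, chromosome 7:100620416-100642779, minus strand), a hepatocyte receptor for iron-loaded transferrin that is needed for normal hepcidin expression, rose from 137, 149, 133 and 150.2 CPM in 2D-primed replicates to 202, 179, 194 and 168 CPM in 3D-primed replicates. TMPRSS6 (ENSG00000187045, chromosome 22:37065436-37109713, minus strand), a membrane protease that cleaves the BMP co-receptor hemojuvelin and restrains hepcidin, was at 21.9, 23.2, 19.7 and 22.8 CPM in 2D-primed replicates and at 21.0, 13.7, 15.4 and 15.0 CPM in 3D-primed replicates. The groups of TFR2 did not overlap, and those of TMPRSS6 overlapped because 3D-primed replicate 1 was above 2D-primed replicate 3. The log2 fold change of TFR2 was 0.38 ± 0.0642 (SE; edgeR, adjusted p = 3.9e-04). That of TMPRSS6 was -0.42 ± 0.120 (SE; edgeR, adjusted p = 0.010), and it was -0.57 without 3D-primed replicate 1.

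Relative to both regulators, HAMP was lower in 3D-primed cells. The log2 ratio of HAMP to TFR2 went from -1.94 ± 0.0881 to -3.90 ± 0.446 (SD, n = 4 each), a difference of -1.96. The log2 ratio of HAMP to TMPRSS6 went from 0.76 ± 0.102 to -0.37 ± 0.562 (SD, n = 4 each), a difference of -1.13. In both ratios every 3D-primed library lay below every 2D-primed library. The exact permutation p was 0.029 in each, the smallest that 4 against 4 libraries allow, or 0.043 adjusted over the 6 ratios. For TFR2 this outcome was fixed by the levels, since HAMP was lower and TFR2 higher in every 3D-primed library. For TMPRSS6 it was fixed as well. The lowest 2D-primed and highest 3D-primed levels of HAMP were 36.8 and 19.5 CPM. That gap is wider in proportion than the whole range of TMPRSS6 over the 8 libraries, 13.7 to 23.2 CPM. Neither test therefore adds anything to the changes of HAMP, TFR2 and TMPRSS6 given above.

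Hemojuvelin (HJV), the co-receptor that TMPRSS6 cleaves, could not be tested: it had 0 counts in each 2D-primed library and 2, 2, 1 and 4 counts in the 3D-primed libraries. The other genes of hepcidin sensing and BMP signalling were read from a list of 17, of which 14 were tested. In 3D-primed cells 7 were lower (ATOH8, BMP6, ENG, BMPR2, BMP4, FURIN and ACVR1), 3 were higher (NEO1, ACVR2A and SMAD1) and 4 were not called (HFE, BMPR1A, SMAD5 and SMAD4). Over all genes tested 63.9% were called, so these counts are not read as a result about this list. The smallest p-values belonged to ATOH8, BMPR2 and ENG. ATOH8, a helix-loop-helix factor that binds the HAMP promoter, went from 11.5 ± 1.22 to 0.573 ± 0.129 CPM (SD, n = 4 each), a log2 fold change of -4.30 ± 0.155 (SE; edgeR, adjusted p = 2.2e-08). BMPR2, the type II BMP receptor, went from 55.7 ± 3.13 to 29.6 ± 1.38 CPM, and ENG, the co-receptor endoglin, from 6.54 ± 0.977 to 0.947 ± 0.190 CPM (SD, n = 4 each; log2 fold changes -0.91 and -2.78). ENG is also expressed by endothelial cells, although the cultures here were of the HepG2 line only. Of the endothelial markers given above, CDH5 was also lower in 3D-primed cells and VWF was higher. Any link of these markers to the change of ENG was not tested. The ligand BMP2 (1 to 6 counts per library) and ERFE, a secreted hormone that binds BMPs and lowers hepcidin (1 to 4 counts per library), could not be tested.

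All 6 tested members of a list of 7 other BMP-SMAD targets were lower in 3D-primed cells, where 31.6% of all genes tested were lower, and their median log2 fold change was -1.10. The list was chosen with earlier results of these data known, so these figures describe the list and give no independent support. The 3 with the smallest p-values were the inhibitory SMAD7, the helix-loop-helix inhibitor ID2 and the receptor SMAD named SMAD9. SMAD7 went from 53.0 ± 2.42 to 18.4 ± 1.90 CPM, ID2 from 335 ± 17.3 to 130.1 ± 14.2 CPM and SMAD9 from 35.3 ± 3.15 to 13.7 ± 1.07 CPM (SD, n = 4 each). Their log2 fold changes were -1.52, -1.36 and -1.37 (edgeR, adjusted p = 7.8e-08, 2.0e-07 and 2.4e-07). The remaining called targets were ID3, ID4 and BAMBI, the last with a log2 fold change of -0.22, and MSX2 had 0 counts in every library. The groups of ID4, at about 1 CPM, overlapped.

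The interleukin 6 arm gave calls in both directions. Of its 8 genes, all tested, 3 were higher in 3D-primed cells, 2 were lower and 3 were not called (IL6R, JAK2 and SOCS3). Over all genes tested 63.9% were called, and the counts are not read beyond that share. JAK1, a kinase of the receptor complex, went from 171 ± 8.76 to 90.5 ± 4.86 CPM, whereas IL6ST, the signal-transducing receptor chain gp130, went from 226 ± 3.43 to 295 ± 15.4 CPM (SD, n = 4 each). CEBPA, a hepatocyte transcription factor that sustains basal hepcidin expression, rose from 76.6 ± 8.33 to 162 ± 9.68 CPM (SD, n = 4 each), a log2 fold change of 1.09 ± 0.0754 (SE; edgeR, adjusted p = 8.9e-07). SOCS3, a feedback target of STAT3, was at 4.04 ± 0.301 and 4.19 ± 0.871 CPM (SD, n = 4 each; edgeR, adjusted p = 0.78).

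**Figure D3:**
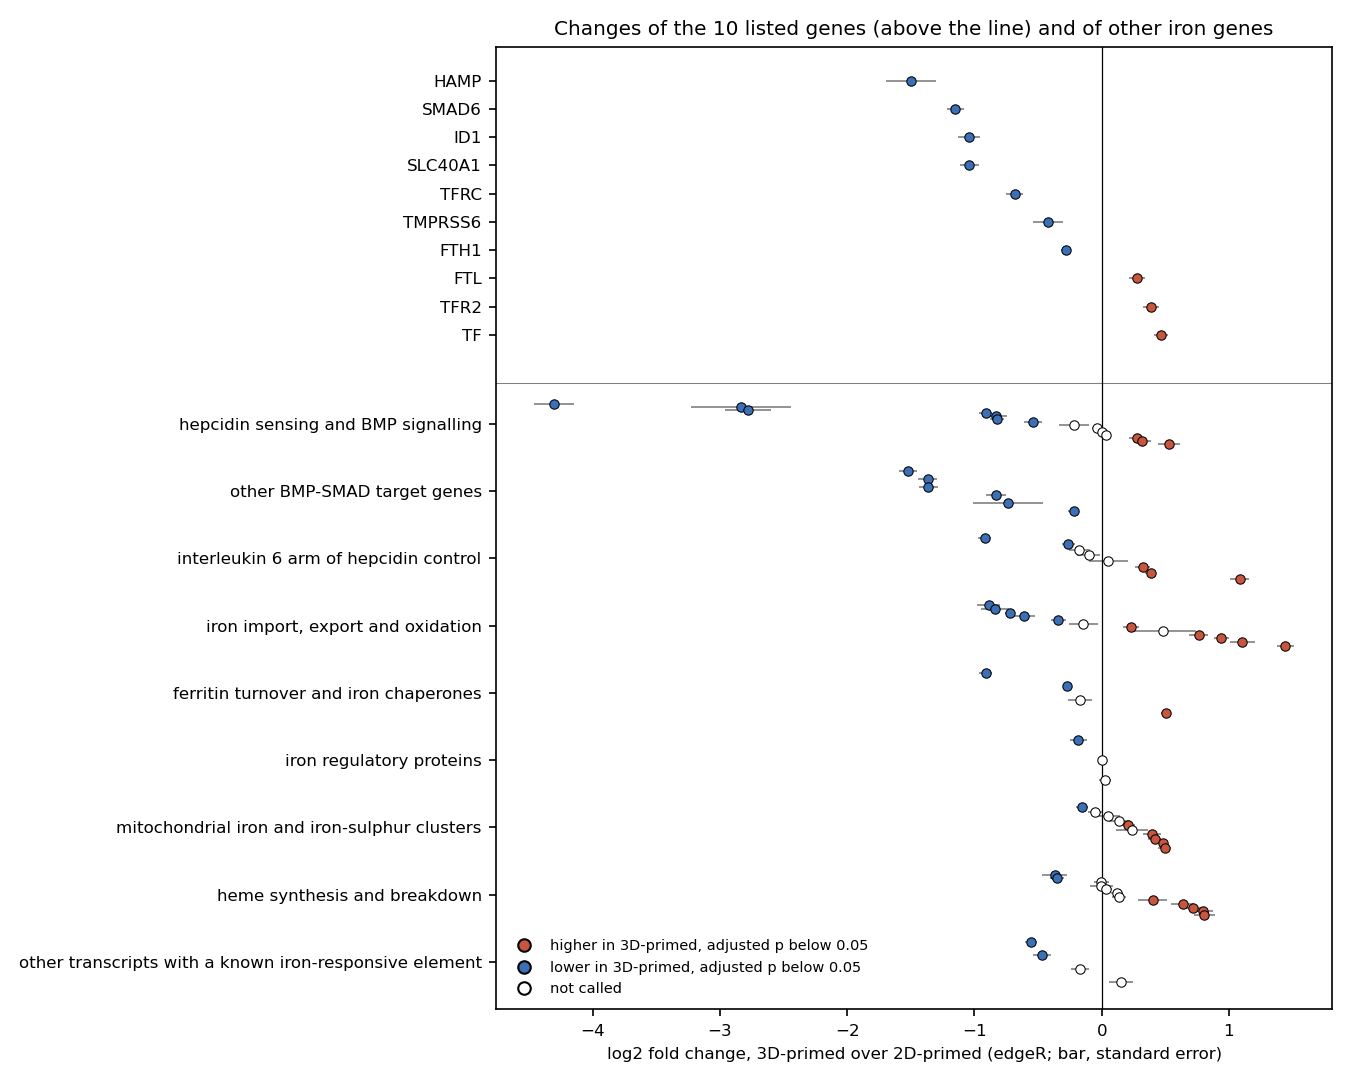
Log2 fold change of 3D-primed over 2D-primed cells (edgeR, bars show the standard error) for the 10 listed genes, each on its own line, and for the tested genes of 9 other iron lists, with 1 point per gene; filled points passed an adjusted p of 0.05. The 6 tested targets in the list of other BMP-SMAD target genes lie left of 0. That list was chosen with earlier results of these data known. The other lists hold points on both sides or near 0.

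A likeness search over 8717 genes with a mean of at least 10 CPM and counts in every library ranked genes by the root mean square difference from HAMP in log2 CPM centred on its mean over the 8 libraries. Near the top of this order were LOX (0.152), APOL1 (0.154), ANGPTL2 (0.156) and SORL1 (0.164). They encode, in the same order, lysyl oxidase, an apolipoprotein, an angiopoietin-like secreted protein and a sorting receptor. Each was lower in all 3D-primed libraries and, as choosing by likeness favours, highest in 3D-primed replicate 3 and lowest in 3D-primed replicate 4 within that group. LOX, for instance, was at 122, 95.6, 137 and 78.8 CPM in 3D-primed replicates 1 to 4, against 327 to 347 CPM in 2D-primed cells. Among the iron genes the nearest were ID2 (rank 69), SMAD7 (rank 85), SMAD9 (rank 184), ID1 (rank 209), SLC40A1 (rank 234), SMAD6 (rank 264) and the ferroxidase ceruloplasmin, CP (rank 298). These ranks describe 8 points in 2 groups, and genes that differ between the groups by about as much as HAMP rank high.

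**Figure D4:**
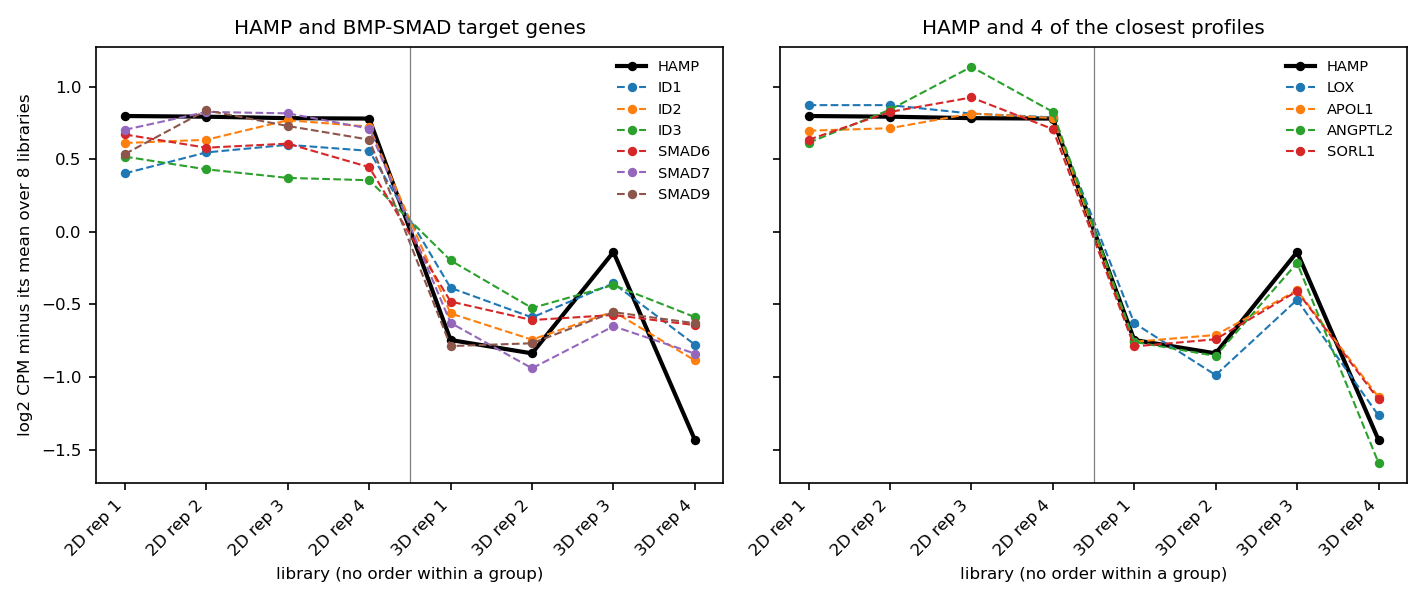
Log2 CPM of each gene minus its mean over the 8 libraries (vertical axis) in the 4 2D-primed and 4 3D-primed libraries (horizontal axis; lines join libraries for reading only), for HAMP with 6 BMP-SMAD targets on the left and with 4 of the closest genes on the right. In 3D-primed replicate 4 HAMP drops below the BMP-SMAD targets, and the 4 close genes drop with it.

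Transferrin (TF, ENSG00000091513, chromosome 3:133746040-133796641, plus strand), the plasma iron carrier made by hepatocytes, was higher in 3D-primed cells. It stood at 9527, 10208, 9748 and 10635 CPM in 2D-primed replicates and at 14447, 13202, 15008 and 12854 CPM in 3D-primed replicates. All 3D-primed libraries were above all 2D-primed libraries, and the log2 fold change was 0.47 ± 0.0550 (SE; edgeR, adjusted p = 3.3e-05). SRPRB and the pseudogene ACSL3P1 overlap TF on the same strand, with 1011 to 2086 and 268 to 850 counts per library against 207937 to 418687 for TF.

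TFRC (ENSG00000072274, chromosome 3:196012511-196082153, minus strand), the receptor through which most cells take up transferrin-bound iron, changed in the opposite direction to TF and TFR2. It stood at 1032, 1034, 1057 and 1011 CPM in 2D-primed replicates and at 636, 634, 735 and 569 CPM in 3D-primed replicates. The groups were apart, with the 3D-primed group again highest in replicate 3 and lowest in replicate 4, and the log2 fold change was -0.68 ± 0.0671 (SE; edgeR, adjusted p = 9.1e-06). Per kilobase of the representative transcript, the level of TFRC was 4.20 ± 0.317 times that of TFR2 in 2D-primed cells and 2.00 ± 0.155 times in 3D-primed cells (SD, n = 4 each). With the merged length of all exons these ratios were 2.12 and 1.01. The 2 receptors were then about level in 3D-primed cells, with ratios from 0.918 to 1.10 in single libraries. The ratio was lower in 3D-primed cells with either length.

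The ferritin chains changed in opposite directions. FTH1 (ENSG00000167996, chromosome 11:61959718-61967634, minus strand), the heavy chain with ferroxidase activity, stood at 1941, 2059.8, 2059 and 2004 CPM in 2D-primed replicates and at 1697, 1622, 1642 and 1669 CPM in 3D-primed replicates. FTL (ENSG00000087086, chromosome 19:48965309-48966879, plus strand), the light chain that favours mineral storage, ran from 2713 to 2979 CPM in 2D-primed replicates and stood at 3686, 3298, 3069.9 and 3617 CPM in 3D-primed replicates. Neither gene overlapped between the groups. The log2 fold change was -0.28 ± 0.0346 for FTH1 (SE; edgeR, adjusted p = 4.5e-05) and 0.28 ± 0.0601 for FTL (SE; edgeR, adjusted p = 0.0022). Per kilobase, FTL was 1.93 ± 0.0990 times FTH1 in 2D-primed cells and 2.85 ± 0.197 times in 3D-primed cells (SD, n = 4 each), or 3.22 and 4.74 times with the merged exon length. Both ferritins have many processed pseudogenes: 25 FTH1 copies held 8 to 23 counts per library in all and 16 FTL copies 11 to 30, at most 0.0511% of the counts of the parent gene, although reads assigned to the parent could in principle come from a copy.

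Relative to both ferritins, TFRC was lower in 3D-primed cells. The log2 ratio of TFRC to FTH1 counts went from -0.96 ± 0.0374 to -1.37 ± 0.163, and that of TFRC to FTL from -1.45 ± 0.0681 to -2.41 ± 0.261 (SD, n = 4 each). The differences were -0.41 and -0.96, with no overlap between the groups and an exact permutation p of 0.029 for each (0.043 adjusted over the 6 ratios). For FTL this outcome was fixed by the levels, since TFRC was lower and FTL higher in every 3D-primed library. For FTH1 it was fixed as well. The lowest 2D-primed and highest 3D-primed levels of TFRC were 1011 and 735 CPM. That gap is wider in proportion than the whole range of FTH1 over the 8 libraries, 1622 to 2059.8 CPM. Neither test therefore adds anything to the changes of TFRC, FTL and FTH1 given above.

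Ferroportin (SLC40A1, ENSG00000138449, chromosome 2:189560590-189583758, minus strand), which carries its iron-responsive element in the 5′ UTR as the ferritins do, was at 135, 125, 134 and 118 CPM in 2D-primed replicates and at 65.7, 62.3, 67.7 and 53.0 CPM in 3D-primed replicates. The groups were far apart, and the log2 fold change was -1.04 ± 0.0759 (SE; edgeR, adjusted p = 1.2e-06). Of the 5 listed genes with a match to the element, 3 were thus lower (FTH1, SLC40A1 and TFRC) and 2 were higher (FTL and TF) in 3D-primed cells. Of the 3 genes with a 5′ element, FTL rose while FTH1 and SLC40A1 fell. As described above, the element of these 3 genes acts on translation, which RNA counts do not measure.

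The transcripts of both iron regulatory proteins did not pass the test. ACO1, whose protein is a cytosolic aconitase or an iron regulatory protein depending on its iron-sulphur cluster, was at 54.3 ± 0.758 and 55.3 ± 3.88 CPM, and IREB2 was at 96.7 ± 2.71 and 97.0 ± 2.39 CPM in 2D-primed and 3D-primed cells (SD, n = 4 each). The tests gave no call (edgeR, adjusted p = 0.67 and 0.93), and their log2 fold changes were 0.026 ± 0.0499 and 0.0041 ± 0.0367 (SE). FBXL5, the iron-sensing ubiquitin ligase subunit that targets IREB2, went from 23.3 ± 2.03 to 20.5 ± 0.592 CPM (SD, n = 4 each) with overlapping groups (log2 fold change -0.18; edgeR, adjusted p = 0.031), a call that several alternative settings did not give. In a list of 4 other transcripts with a known element 2 were lower and 2 were not called, where 63.9% of all genes tested were called. EPAS1, a hypoxia-inducible transcription factor, went from 289 ± 16.3 to 209 ± 19.9 CPM (SD, n = 4 each; edgeR, adjusted p = 1.5e-04). CDC42BPA (log2 fold change -0.17; edgeR, adjusted p = 0.052) and CDC14A were not called. The search for elements described above gave no match in EPAS1 or CDC42BPA, so it misses some known elements.

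Among 14 genes of iron import, export and oxidation, 12 were tested, of which 5 were higher, 5 lower and 2 not called. The share called over all genes tested was 63.9%. STEAP1, of the STEAP metalloreductase family, went from 10.1 ± 0.726 to 27.5 ± 1.67 CPM and FLVCR1, a heme and choline transporter, from 27.5 ± 2.35 to 52.9 ± 1.43 CPM (SD, n = 4 each). SLC11A2, the ferrous iron transporter DMT1, went from 172 ± 5.86 to 104.1 ± 3.96 CPM (SD, n = 4 each). The log2 fold changes of the 3 genes were 1.44, 0.94 and -0.72. STEAP4 (1 to 5 counts) and HEPH (0 to 1 count) could not be tested.

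Of 5 genes of ferritin turnover and iron chaperoning, 4 were tested and HERC2 was not called, where 63.9% of all genes tested were called. NCOA4, the receptor that delivers ferritin to lysosomes, rose from 567 ± 20.5 to 805 ± 20.2 CPM, while PCBP1, an RNA-binding protein that also brings iron to ferritin, fell from 689.7 ± 48.6 to 367 ± 8.49 CPM and its relative PCBP2 from 716 ± 14.6 to 593 ± 10.7 CPM (SD, n = 4 each). The log2 fold changes were 0.50, -0.91 and -0.27 (edgeR, adjusted p = 1.8e-06, 2.5e-07 and 4.9e-05). Mitochondrial ferritin (FTMT) had 0 counts in every library.

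Genes that use iron had calls in both directions, where 63.9% of all genes tested were called. Of 10 genes of mitochondrial iron and iron-sulphur cluster assembly 5 were higher, 1 was lower and 4 were not called, with a median log2 fold change of 0.22. LYRM4 went from 37.6 ± 0.288 to 52.4 ± 0.774 CPM, the scaffold ISCU from 35.1 ± 1.23 to 49.5 ± 3.04 CPM and the glutaredoxin GLRX5 from 72.2 ± 1.73 to 96.3 ± 6.11 CPM (SD, n = 4 each). Of 12 genes of heme synthesis and breakdown 5 were higher, 2 were lower and 5 were not called, with a median of 0.13. The synthetic enzymes UROS, FECH and UROD went from 11.2 ± 1.07 to 19.6 ± 0.858 CPM, from 10.9 ± 1.09 to 19.2 ± 1.57 CPM and from 30.9 ± 2.71 to 50.9 ± 6.01 CPM, respectively (SD, n = 4 each). The mitochondrial share of counts was also higher in these libraries, as given above, and its part in these changes was not tested.

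Over all 9 lists, 73 of 80 other iron genes were tested, of which 22 were higher and 28 lower in 3D-primed cells and 23 were not called, with a median log2 fold change of -0.0031. The share called is near that of all genes tested (63.9%), and nothing about iron genes as a whole is read from it.

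Per kilobase of the representative transcript, the order of the listed genes in 2D-primed cells was FTL, FTH1, TF, ID1, TFRC, HAMP, TFR2, SLC40A1, TMPRSS6 and SMAD6, from 3237 ± 144 to 4.76 ± 0.307 CPM per kilobase (SD, n = 4), and no neighbours in it overlapped between libraries. In 3D-primed cells HAMP stood below TFR2, at 32.1 ± 11.8 against 64.4 ± 5.24 CPM per kilobase (SD, n = 4), and its range overlapped that of SLC40A1, the next gene. The rest of the order was the same. The place of HAMP, whose transcript of 406 bases is far shorter than its merged exon length of 2862 bases, depends on the length used. With merged lengths HAMP was at 12.9 and 4.56 CPM per kilobase in 2D-primed and 3D-primed cells, below TFR2 and SLC40A1 in both. In 2D-primed cells SLC40A1 (30.3) then stood above TFR2 (28.1). TF, whose representative transcript of 20166 bases is mostly 3′ UTR, stayed between FTH1 and ID1 with its merged length of 26038 bases.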

How the data were processed

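Poly(A) RNA of 8 HepG2 libraries was sequenced with a directional kit. The authors quantified reads with Salmon against Ensembl release 98 transcripts (GRCh38), imported them with tximport and deposited estimated counts per gene as whole numbers, 1 table per library (expected counts; the length setting of the import is not given in the sources used here). These counts were used as deposited. GENCODE release 44 gave a symbol to 29661 of 38032 identifiers, which held 97.4% of counts.

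The 13943 genes that reached 10 counts in 2 or more libraries were tested with edgeR 4.0.16 (TMM scaling, quasi-likelihood test, Benjamini-Hochberg adjustment over all genes tested, threshold 0.05) in R 4.3.3. CPM are TMM-scaled. Ratios within a library used a pseudocount of 0.5 and a two-sided exact permutation test in SciPy 1.17.1. Alternatives were DESeq2 1.42.0, limma-voom 3.58.1, other scalings and filters, leaving out each library, a replicate block and added ferritin pseudogenes. Promoter windows came from RefSeq (GRCh38.p14).

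The listed genes and gene lists were chosen with earlier results of these data known. The text names all listed genes, the 3 genes of each other list with the smallest p-values, list genes that could not be tested and the 5 genes closest to HAMP, except 2 genes that are not reported here; the remaining called and uncalled genes of short lists are named only to complete their counts, and BAMBI, ID4, SOCS3 and CP were chosen after their values were seen. Counts set the precision, and intervals between libraries cover the spread of 4 libraries per group.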

Additional observations from a re-analysis of the deposited data

Results flagged for a closer look

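In 84 groups of 4 libraries (listed and named iron genes in each condition), 6 held 1 library apart from the other 3 by Dixon's criterion, which chance alone gives in about 1 in 20 groups. None of the 10 listed genes was among them. ENG was at 5.09 CPM in 2D-primed replicate 1, against 6.84 to 7.18 CPM in the other libraries of that group. EPAS1 was at 265 CPM in the same library, against 295 to 299.9 CPM. EPAS1 was also at 238 CPM in 3D-primed replicate 3, against 197 to 202 CPM. NCOA4 was at 835 CPM in 3D-primed replicate 1, against 791 to 798 CPM. FECH was at 9.32 CPM in 2D-primed replicate 3, against 11.3 to 11.6 CPM. FBXL5 was at 20.3 CPM in 2D-primed replicate 2, against 24.1 to 24.5 CPM.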

How the results depend on the processing

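All 10 listed genes kept their direction and their call under every alternative setting of the fit, with HAMP between -1.77 and -1.32 (log2) and the highest adjusted p at 0.029, for TMPRSS6 without 3D-primed replicate 4 (edgeR). Between 48 and 52 other iron genes were called, and no scaling moved the median of all genes by more than 0.050 (log2). The log2 fold change of IREB2, near 0, changed sign with DESeq2 (-0.0056), RLE scaling (-0.0059), filterByExpr (-0.0032), 10 counts in all 8 libraries (-0.0021) and when libraries were left out (-0.021 to 0.014), as did that of ACO1 when libraries were left out (-0.030 to 0.045). FBXL5 lost its call with upper-quartile (-0.13) and total-count scaling (-0.16), among others, and CDC42BPA gained one with DESeq2 (-0.18), among others. With merged exon lengths, FTL over FTH1 was 3.22 and 4.74 and TFRC over TFR2 was 2.12 and 1.01 in 2D-primed and 3D-primed cells. Samples with the same replicate number did not deviate together (correlations from -0.043 to 0.057), so the numbers do not pair them. With the replicate block 8490 genes were called in place of 8916, all 10 listed genes among them, and HAMP was at -1.55 (log2). The ratios cannot reach 0.05 under the block, where the smallest exact p is 0.125. The spread of the 4 3D-primed libraries, more than the depth (200 or more HAMP counts in each), limits the ratios of HAMP to ID1 and SMAD6.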
